A study of Mus musculus with 98 samples.

Results

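The clustered protocadherins were followed through every library of the study. They were taken as all gene symbols in the count tables that name an alpha, beta, gamma A, gamma B or C type member of the Pcdha, Pcdhb and Pcdhg clusters, and 58 of the 55852 symbols met that rule. They comprise 12 alpha genes (Pcdha1 to Pcdha12), 22 beta genes (Pcdhb1 to Pcdhb22), 12 gamma A genes, 7 gamma B genes and 5 C type genes (Pcdhac1, Pcdhac2, Pcdhgc3, Pcdhgc4 and Pcdhgc5). All 58 were listed in 2 of the 6 tables and 57 in the other 4, where Pcdha10 had no row.

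Clustered protocadherins are cadherin-like cell surface proteins of neurons that bind only the same isoform on another membrane, so the set of isoforms a neuron makes acts as a surface label for its own branches. In a given neuron only some of the alternate alpha, beta and gamma promoters are active, a choice that involves CTCF, cohesin and DNA methylation, while the C type genes are read more evenly across cells. In bulk RNA a level is therefore an average over cells that each use different members, and fewer cells using a member cannot be told apart from less RNA per cell.

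The study tested an adeno-associated virus with the PhP.eB capsid that carries ACSS2 (upACSS2), the enzyme that couples acetate to coenzyme A, against the empty vector. The cultures were primary embryonic hippocampal neurons of CD1 mice that received upACSS2 or vector at 5 days in vitro and then hAD-tau, which the labels do not describe further, or PBS from day 7. They were read at day 9 or day 21 without stimulation and at day 21 with a stimulation that the labels do not specify, with 3 libraries in each of the 12 groups. A further culture set received no virus and was read at day 21 (3 PBS and 4 hAD-tau libraries). The mice were all males. Aged C57BL6 mice of 22 to 23 months gave whole hippocampus (12 upACSS2 and 12 vector), and C57BL6 mice of 10 months gave dorsal hippocampus (6 upACSS2 and 5 vector). PS19 mice, which carry a mutant human tau transgene driven by the prion protein promoter, were injected at 2.5 months and read 1 month later (age 3.5 months) or 6 months later (8.5 to 9 months), with 5 mice per virus and time. All animals that gave tissue had been through fear conditioning or a recall test of it shortly before, so no group is untrained. The PS19 upACSS2 group at 1 month is labelled whole hippocampus and the other 3 PS19 groups dorsal hippocampus, so virus and tissue cannot be told apart at that time. Several characteristics entries go against the sample titles, and the titles were followed. The labels do not say that replicate culture libraries came from separate preparations, so the p-values for cultures measure only the spread between these libraries.

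The clusters lie on the plus strand of chromosome 18 of the GRCm38 (mm10) build. In RefSeq the alpha cluster runs from Pcdha1 (start 36930285) to Pcdhac2 (end 37187663), the beta cluster from Pcdhb1 (start 37264998) to Pcdhb22 (end 37521419), and the gamma cluster from Pcdhga1 (start 37661775) to Pcdhgc5 (end 37841873). Each alpha or gamma gene has its own long first exon, and all genes of a cluster splice it to the same constant 3' exons. Beta genes have 1 exon each. A read from a constant exon fits every member of its cluster, and the way such reads were assigned is not given in the sources used here. In GENCODE M21, whose symbols cover 96.3% to 96.5% of those in the tables, 43.7% to 63.9% of the 50-base words of the alpha genes and 26.9% to 65.3% of those of the gamma genes also occur in another member, against 0.0% to 12% for the beta genes. The counts of single alpha and gamma members are therefore uncertain, and a level can include reads of a neighbour.

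A few members carry a further uncertainty of annotation. Of the exon bases of Pcdha4, 83.0% also belong to the read-through gene Gm42416. Pcdha4 stayed between 0 and 0.128 CPM, the counts of a gene scaled to a common library size, in the 4 tables with 57 members and between 0.236 and 1.52 CPM in the other 2. The symbol Pcdha11 belongs to 2 genes in that annotation, one of them at the place where RefSeq has Pcdha10. Exons on the opposite strand cover 100% of the own bases of Pcdhga10, 71.4% of Pcdha11, 63.5% of Pcdhb12, 52.4% of Pcdhga11 and 46.1% of Pcdhgc3. Whether the counting used strand is not given in the sources used here, so these 5 values may include antisense reads. Pcdhgb8 is annotated as a polymorphic pseudogene.

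Total counts per library ran from 5075099 to 39985460, and the members together held 0.0397% to 0.115% of them. Acss2 itself lay between 1488 and 5462 CPM in the upACSS2 cultures and between 40.1 and 57.9 CPM in the vector cultures. In the mice the 2 arms were closer, at 46.7 to 61.5 against 40.0 to 53.7 CPM in aged mice, 49.9 to 59.3 against 42.3 to 48.8 CPM in 10-month mice, 60.1 to 1465 against 51.5 to 66.3 CPM in PS19 mice at 1 month, and 44.9 to 237 against 43.1 to 56.0 CPM at 6 months. No pair of replicate libraries was closer than counting noise. Among the cultures without virus, PBS replicate 3 stood apart: its neuronal marker sum was 7807 CPM against 4352 and 4716 CPM in the other 2 PBS libraries, and its astrocyte marker sum was 2368 against 8763 and 10371 CPM.

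Per kilobase of exon that no other member shares, Pcdhgc3 had the highest level of all members in each of the 22 groups. Pcdhgc3 is a C type isoform known to bind Axin1 and to promote dendrite growth. Its level in the vector PBS cultures was 37.3 ± 2.59 CPM per kilobase at day 9 (SD, n = 3) and 45.4 ± 12.1 at day 21 (SD, n = 3). Pcdhac2, a C type isoform needed for the even spacing of serotonergic axons, came next at day 9 with 33.9 ± 0.43 CPM per kilobase in the same group (SD, n = 3). The 12.7 CPM per kilobase of the third-placed Pcdha12 was well under both. In the vector groups of the mice Pcdhgc5, Pcdhac2 and Pcdhgc3 took the first 3 places, with Pcdhgc3 at 17.5 ± 1.68, Pcdhgc5 at 14.1 ± 1.07 and Pcdhac2 at 13.2 ± 1.33 CPM per kilobase in aged mice (SD, n = 12). Pcdhgc5 and Pcdhac2 did not differ beyond that spread. At the low end stood Pcdhac1, the C type gene just before Pcdhac2, at 1.31 ± 0.21 CPM per kilobase in the same mice, which was the 44th place.

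In each of the other clusters the member with the highest mean log2 CPM over the libraries, not corrected for length, stood far above the lowest. Pcdha12 averaged 3.17 against -1.94 for Pcdha4 in the alpha cluster, and Pcdhb9 averaged 4.50 against -1.04 for Pcdhb1 in the beta cluster. Pcdhga11 averaged 4.27 against 2.21 for Pcdhga5, and Pcdhgb6 averaged 3.48 against -0.65 for Pcdhgb8. The gap between highest and lowest was smallest in gamma A, but the low end in the alpha and gamma B clusters was Pcdha4 and the pseudogene Pcdhgb8. Leaving out Pcdhgb8, gamma B means ran from 6.34 to 8.70 CPM in unstimulated vector PBS at day 21. The gamma A means of that group ran from 3.61 to 18.4 CPM, so the order of spread rests on single low members.

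The tables were normalised separately, so levels are set side by side across them without a test. Pcdhgc3 ran from 99.9 to 483 CPM over the culture libraries and from 42.5 to 88.6 CPM over the mouse libraries, with no overlap. Pcdhgc4, a C type isoform known to be needed for the survival of cortical interneurons, ran from 15.3 to 52.6 CPM in culture and from 5.24 to 13.3 CPM in mice, again with no overlap. Pcdhac1 and Pcdhac2 overlapped between culture and mice. The order of 57 members by mean level was nearly the same in unstimulated and stimulated day 21 cultures (Spearman's rho 0.99 across genes). It was least alike between day 9 cultures and 10-month mice (rho 0.66), and the 3 mouse sets resembled each other (rho 0.90 to 0.98). Genes are not independent replicates, and all these values share gene length.

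**Figure D1:**
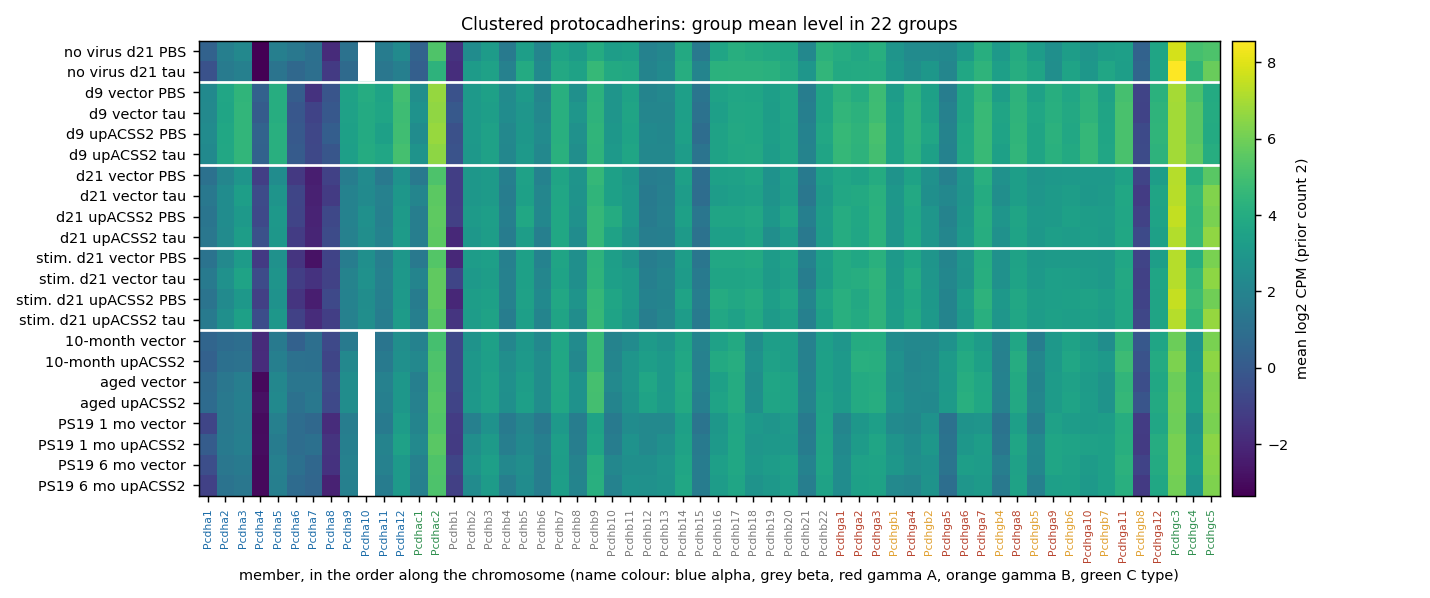
Mean log2 CPM (prior count 2) of each member in each of the 22 groups, with the groups down the rows, the members in chromosomal order across the columns and white cells where the table lists no value for a member. Most alpha columns are brightest in the day 9 cultures, Pcdhgc3 is bright in every row, and Pcdhgc5 is dimmer at day 9 than at day 21 and in mice.

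Between day 9 and day 21 in culture most alpha and gamma members fell, and Pcdhgc5 and Pcdhb10 rose. The beta cluster shifted down by less, with 12 of its 22 members negative in all 4 groups. The comparison was made separately in vector PBS, vector hAD-tau, upACSS2 PBS and upACSS2 hAD-tau, which share no library, by edgeR's quasi-likelihood test with Benjamini-Hochberg adjustment over 14863 genes and a threshold of 0.05. All 58 members were tested in each.

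In vector PBS 37 members were lower and 2 higher at day 21, and 57.7% of all genes tested passed in either direction (27.1% lower and 30.6% higher). Vector hAD-tau had 40 lower and 4 higher (52.6% of all genes in either direction, 24.9% lower and 27.7% higher). upACSS2 PBS had 34 lower and 4 higher (54.3%, 25.8% and 28.5%). upACSS2 hAD-tau had 41 lower and 2 higher (53.6%, 26.4% and 27.2%). Lower calls thus took 34 to 41 of the 58 members and 24.9% to 27.1% of all genes, and higher calls took 2 to 4 members and 27.2% to 30.6% of all genes. The median log2 fold change over the members was -0.58, -0.63, -0.60 and -0.59 in these groups, against 0.05, 0.04, 0.03 and 0.01 over all genes tested.

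Of the 58 members, 31 were lower in all 4 groups, 2 were higher in all 4 (Pcdhgc5 and Pcdhb10), 10 passed in none, and none passed in opposite directions. The 31 were 9 of 12 alpha, 11 of 12 gamma A, 6 of 7 gamma B, 3 of 5 C type and 2 of 22 beta genes (Pcdhb7 and Pcdhb11). The 10 that passed in none were 8 beta genes, Pcdhga5 and Pcdhgb8. No share of all genes is given for these joint counts, so they only describe the members. Across the 58 members the fold changes of any 2 of the 4 groups had a Pearson r of 0.914 to 0.946, given as a description because the genes share clusters and constant exons.

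**Figure D2:**
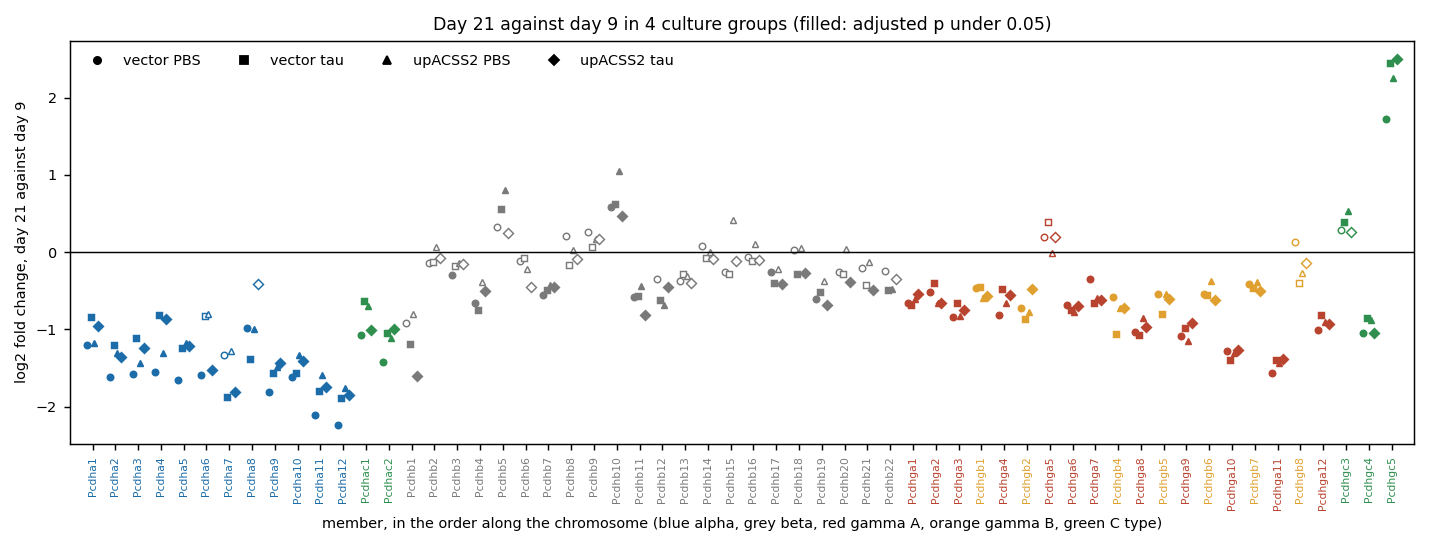
Log2 fold change of day 21 over day 9 for each of the 58 members in chromosomal order, with 1 point for each of the 4 groups (vector or upACSS2, PBS or hAD-tau). The marker's shape gives the group, its colour the cluster, and a filled marker an adjusted p under 0.05 by edgeR. Alpha and gamma points lie mostly below 0 and many beta points near it, with Pcdhgc5 at 1.72 to 2.50 the highest.

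The alpha cluster fell furthest. Its mean log2 CPM over 12 members lay between 2.34 and 2.60 in the 12 day 9 libraries and between 0.68 and 1.43 in the 12 day 21 libraries, so the days did not overlap. The median fold change over the cluster was -1.60 in vector PBS, -1.31 in vector hAD-tau, -1.30 in upACSS2 PBS and -1.39 in upACSS2 hAD-tau. All 12 alpha members had negative values in all 4 groups.

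Pcdha12, the alternate alpha gene nearest the C type pair, was the clearest case. Its levels were 32.2, 33.8 and 28.4 CPM in the vector PBS libraries of day 9 and 8.78, 5.19 and 6.14 CPM in those of day 21. In the upACSS2 PBS libraries they were 29.7, 28.4 and 31.9 CPM at day 9 and 6.84, 8.65 and 11.1 CPM at day 21. All 24 libraries divided by day, the highest at day 21 being 11.2 CPM and the lowest at day 9 being 28.3 CPM. The log2 fold change was -2.24 (SE 0.20, edgeR adjusted p = 1.32e-08) in vector PBS and -1.76 (SE 0.20, adjusted p = 3.08e-07) in upACSS2 PBS. Its neighbour Pcdha11 followed with -2.11 to -1.59 over the 4 groups, and Pcdha1 at the far end of the cluster with -1.20 to -0.83. Over the 12 alpha genes the mean change went with position along the chromosome at a Spearman's rho of -0.66, later genes falling more. Against the day 9 level the change had a rho of -0.44. Both rest on single alpha counts, which are uncertain as given above.

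The gamma A cluster fell by less. Its mean log2 CPM was 4.10 to 4.39 over the day 9 libraries and 3.08 to 3.63 over the day 21 libraries, and its median fold changes were -0.82, -0.72, -0.81 and -0.72 in the order of groups above. Pcdhga11, the member of the cluster with the highest mean over all libraries, lay at 31.9, 33.4 and 35.0 CPM in vector PBS at day 9 and at 11.7, 11.5 and 10.6 CPM at day 21. Its day 21 mean of 11.26 CPM there was under those of Pcdhga7 (18.4 CPM), Pcdhga3 (15.9), Pcdhga1 (12.9), Pcdhga2 (11.37) and Pcdhga4 (11.31). For Pcdhga11 the 2 days stood apart in all 4 groups, with 31.7 CPM the lowest value at day 9 and 15.4 CPM the highest at day 21. Its log2 fold change was -1.57 (SE 0.12, edgeR adjusted p = 9.25e-10) in vector PBS and -1.44 to -1.38 in the other 3 groups. Pcdhga10 had -1.40 to -1.26. Pcdhga5, the lowest gamma A gene, had -0.01 to 0.38 and passed in no group. As in the alpha cluster, later gamma A genes fell more (rho -0.69 over 12 genes), and the change had a rho of -0.34 against the day 9 level.

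The 7 gamma B genes had median fold changes of -0.55, -0.56, -0.54 and -0.57, and their mean log2 CPM was 2.73 to 3.07 at day 9 and 2.12 to 2.66 at day 21. In this cluster the order along the chromosome ran the other way (rho 0.61), over 7 genes only. The last of them is the pseudogene Pcdhgb8, at 0.45 CPM at day 9 and 0.46 CPM at day 21 in vector PBS. No rho is given without it, so the direction may rest on that gene.

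The beta cluster stood apart from these, with medians of -0.25, -0.28, -0.13 and -0.36 and overlapping day ranges of 2.80 to 3.01 and 2.46 to 2.88 log2 CPM. Position and change were unrelated over its 22 genes (rho -0.05). Pcdhb9, the highest beta gene, was at 19.2, 21.1 and 18.6 CPM at day 9 and at 22.8, 24.8 and 23.2 CPM at day 21 in vector PBS, and it passed in no group (0.07 to 0.27). Pcdhb10 was the only beta gene called higher in all 4 groups. Its levels were 7.35, 7.78 and 7.75 CPM at day 9 and 16.7, 15.3 and 15.5 CPM at day 21 in upACSS2 PBS, where its fold change was largest (1.05, SE 0.17, edgeR adjusted p = 3.14e-05). It had 0.59 in vector PBS, 0.63 in vector hAD-tau and 0.46 in upACSS2 hAD-tau. Its call ended in vector PBS without replicate 2 of day 21 (adjusted p 0.0679) and in vector hAD-tau without replicate 2 of day 21 (0.0704). In upACSS2 hAD-tau it ended without day 21 replicate 1 or 2 or day 9 replicate 2 or 3 (adjusted p 0.0562 to 0.101).

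**Figure D3:**
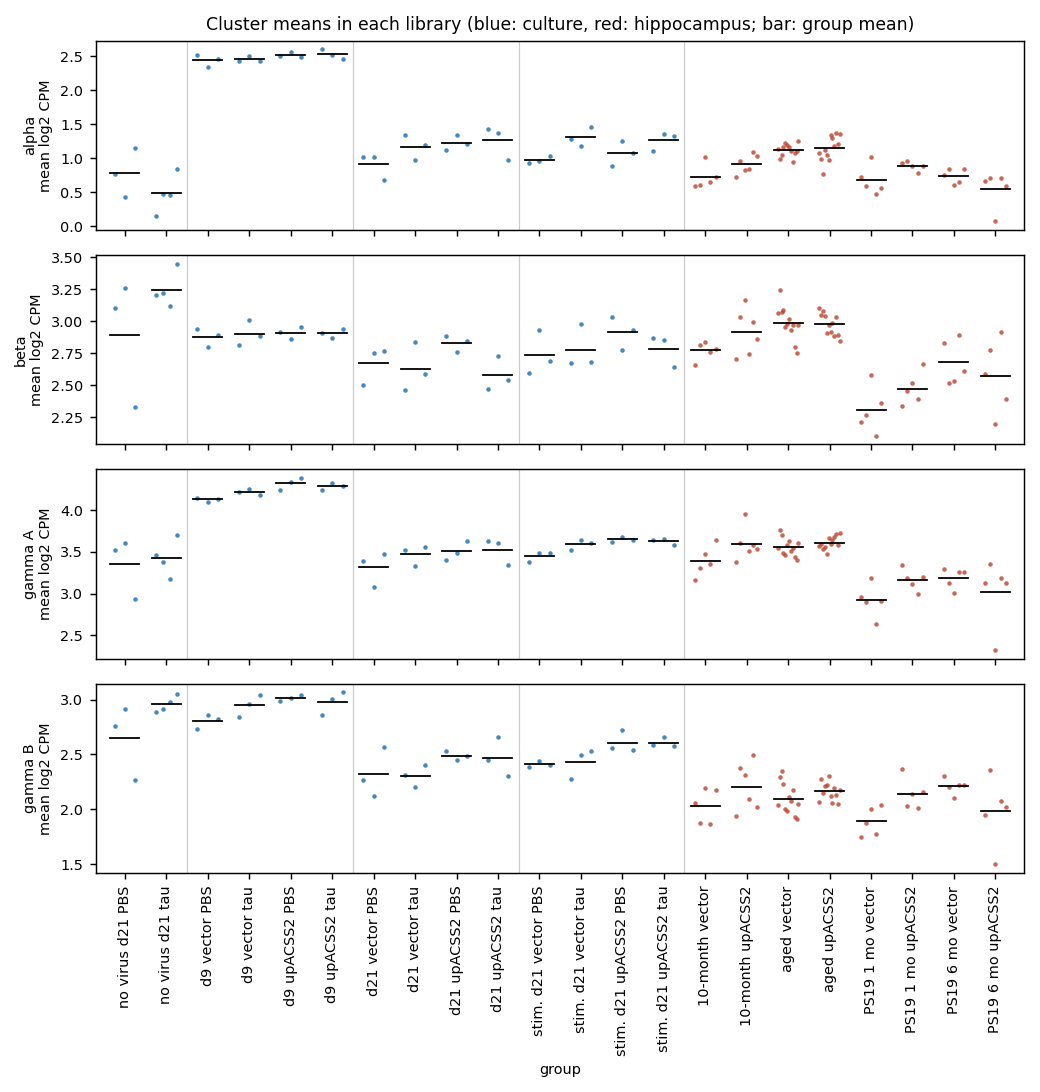
Mean log2 CPM of the members of each cluster in each library, 1 panel per cluster and 1 point per library, by group, with a bar at the group mean. The alpha points sit at 2.34 to 2.60 in the day 9 cultures and at 0.68 to 1.43 in the unstimulated day 21 cultures, while the beta points of the 2 days overlap.

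The 5 C type genes went separate ways. Pcdhgc5, a C type isoform known to bind a GABA-A receptor subunit, was at 15.5, 14.8 and 14.8 CPM in vector PBS at day 9 and at 77.9, 33.9 and 37.6 CPM at day 21. In upACSS2 hAD-tau it was at 14.3, 19.9 and 17.1 CPM at day 9 and at 106, 108 and 75.8 CPM at day 21. Every day 21 library was above every day 9 library, the nearest being 33.9 and 19.9 CPM. The log2 fold change was 1.72 (SE 0.31, edgeR adjusted p = 7.42e-05) in vector PBS, 2.45 (SE 0.31, 1.80e-06) in vector hAD-tau, 2.26 (SE 0.31, 4.17e-06) in upACSS2 PBS and 2.50 (SE 0.31, 1.08e-06) in upACSS2 hAD-tau.

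Pcdhac2 fell. It was at 102, 104 and 102 CPM in vector PBS at day 9 and at 45.7, 35.6 and 34.2 CPM at day 21, with fold changes of -1.42 to -0.99 over the 4 groups and no overlap between the days. Pcdhgc4 was at 35.9, 36.9 and 37.5 CPM at day 9 and at 16.7, 16.5 and 19.9 CPM at day 21 in vector PBS. It fell by 1.05 on the log2 scale there (SE 0.15, edgeR adjusted p = 6.20e-06) and by 0.85 to 1.05 over the 4 groups. These 2 calls and those of Pcdhgc5, Pcdha12 and Pcdhga11 held under all 12 alternatives tried in each group.

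Pcdhac1 fell too, from 5.80 ± 0.81 to 2.80 ± 0.90 CPM in vector PBS (SD, n = 3 each), by 0.63 to 1.08 on the log2 scale over the groups. Its call ended in upACSS2 PBS without day 21 replicate 1 or day 9 replicate 2 or 3 (adjusted p 0.0704 to 0.101) and in vector hAD-tau without replicate 2 or 3 of either day (0.0516 to 0.119). Pcdhgc3 was at 132, 116 and 131 CPM at day 9 and at 117, 145 and 198 CPM at day 21 in vector PBS, which overlapped. It was called higher in vector hAD-tau (0.39, adjusted p 0.0456) and in upACSS2 PBS (0.53, adjusted p 0.00791), and not in vector PBS (0.28) or upACSS2 hAD-tau (0.26). In vector hAD-tau that call ended without day 21 replicate 2 (0.12, adjusted p 0.507) and without any 1 of the 3 day 9 libraries (0.0795 to 0.104), and DESeq2 did not make it.

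**Figure D4:**
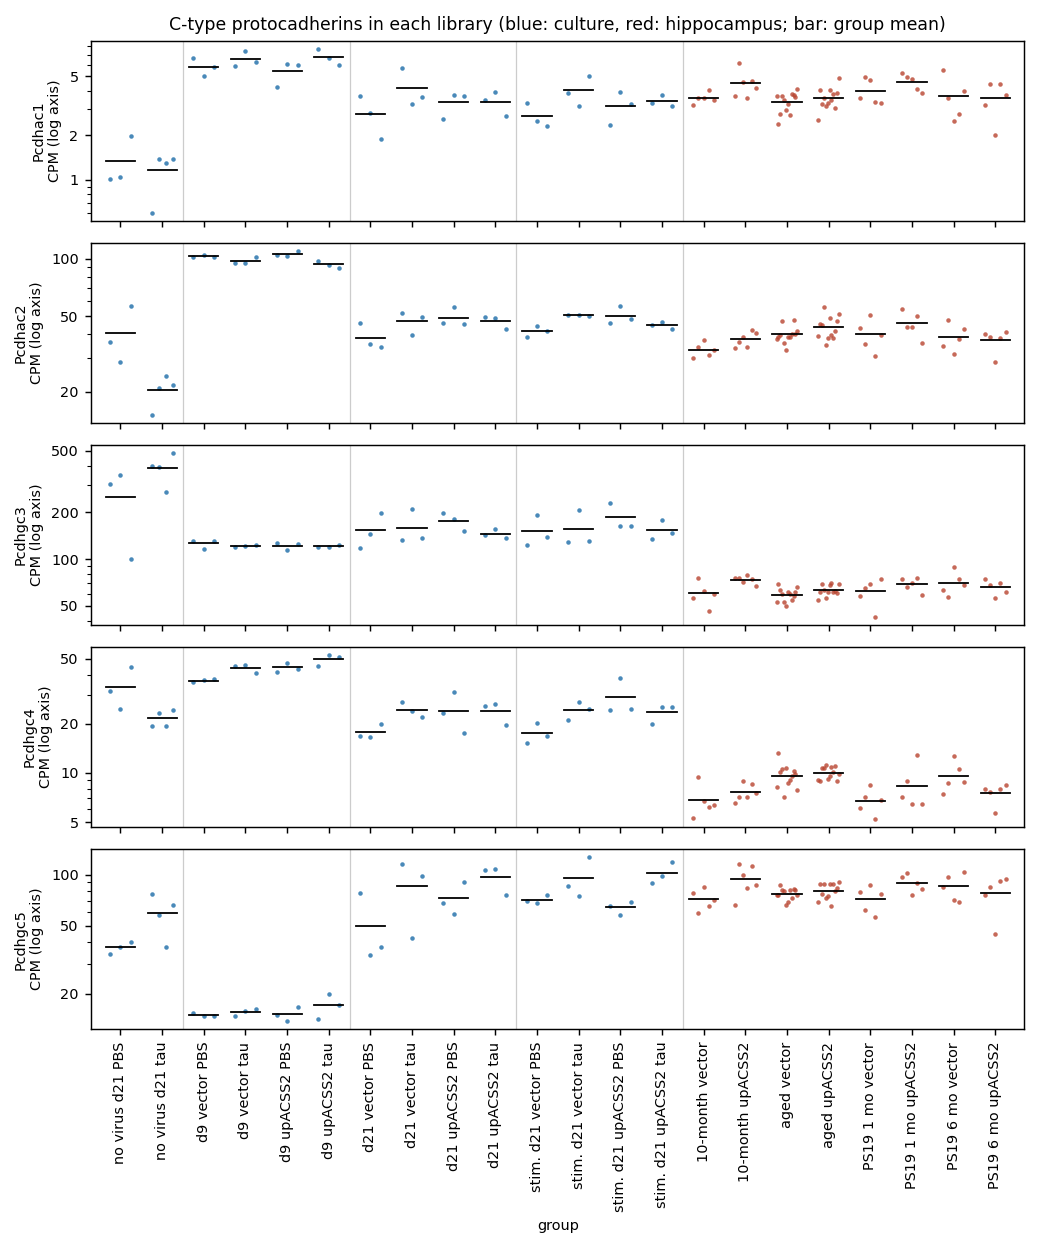
CPM on a log axis of the 5 C type genes in each library, 1 panel per gene and 1 point per library, by group, with a bar at the group mean. Pcdhgc5 sits at 13.9 to 19.9 CPM at day 9 and at 33.9 to 115 CPM in the unstimulated cultures with virus at day 21, Pcdhac2 moves the other way from 89.2 to 110 CPM down to 34.2 to 55.5 CPM, and Pcdhgc3 has the highest group mean of the 5 in each culture group.

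Markers of other cells moved with the same days. Over the 12 libraries of each day the summed level of 10 astrocyte markers went from 2339 to 2904 CPM at day 9 to 3778 to 20756 CPM at day 21, and that of 10 markers of oligodendrocytes and their precursors from 196 to 344 CPM to 1130 to 2891 CPM. The sum of 12 neuronal markers went from 11384 to 12368 CPM to 6401 to 11943 CPM. The 3 day 21 libraries with the lowest neuronal sums (vector PBS replicates 2 and 3 at 7282 and 6401 CPM, vector hAD-tau replicate 2 at 6969 CPM) also had the 3 lowest Pcdhgc5 levels of that day, 33.9, 37.6 and 42.5 CPM. Their Pcdhgc3 levels were 145, 198 and 210 CPM. The upACSS2 groups hold none of these libraries, but by the ranges above their astrocyte and oligodendrocyte sums were also higher at day 21 than at day 9. The part of the cell mixture in the day changes was not tested.

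Among 23 genes known to act on protocadherin promoter choice, the day 21 calls were 4 higher and 9 lower in vector PBS, 2 and 9 in vector hAD-tau, 7 and 9 in upACSS2 PBS, and 2 and 9 in upACSS2 hAD-tau. The shares of all genes called higher and lower in the same groups are given above with the members. Their medians of -0.01, -0.06, 0.06 and -0.05 were close to those of all genes. The maintenance factor Smchd1, which silences protocadherin promoters, was lower in all 4 groups (-0.40 to -0.26), at 54.5 ± 8.35 CPM at day 21 against 65.4 ± 3.65 CPM at day 9 in vector PBS (SD, n = 3 each). The DNA methyltransferase Dnmt3a went from 357 ± 11 to 176 ± 20.3 CPM in vector PBS (-1.02). Dnmt3b, the methyltransferase linked to alternate promoter choice, passed in vector PBS only, at 1.22 ± 0.41 against 0.62 ± 0.18 CPM. Ctcf passed in upACSS2 PBS (0.23) and not in the other 3 groups (0.01 to 0.03).

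Of 22 genes whose proteins bind, cut or relay protocadherins, 3, 4, 1 and 4 were higher and 9, 9, 7 and 8 lower in the 4 groups in the order above. For this list and the next, the shares of all genes in these groups are likewise those given with the members. The protocadherins outside the clusters were mixed. Of 11 tested, 3 were higher and 5 lower in vector PBS, and 4 were higher and 4 lower in each of the other groups. Pcdh15, best known from hair cells and also used as a marker of oligodendrocyte precursors, went from 8.10 ± 0.93 to 43.9 ± 11.5 CPM in vector PBS (2.43), while Pcdh19, an X-linked delta protocadherin, went from 156 ± 5.15 to 55.7 ± 6.40 CPM (-1.49).

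At day 9, 2 days after the PBS or hAD-tau change, 4 members were higher with upACSS2 than with vector in PBS and none lower, where 10.2% of the 14022 genes tested passed (4.90% higher). The 4 were gamma genes, and 57 members were tested. Pcdhgc4 was at 41.6, 47.4 and 43.5 CPM with upACSS2 and at 35.9, 36.9 and 37.5 CPM with vector (0.26, SE 0.07, edgeR adjusted p = 0.0154). Pcdhga2 was at 20.4, 20.9 and 21.7 against 17.9, 14.2 and 16.4 CPM (0.35, SE 0.08, adjusted p = 0.00858). Pcdhga3 was at 34.2, 33.6 and 34.8 against 27.2, 30.0 and 27.9 CPM (0.27, adjusted p = 0.0067). In each of these the 3 upACSS2 libraries were all above the 3 vector libraries.

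The fourth, Pcdhgb4, was at 11.4, 11.1 and 13 against 10.0, 9.53 and 9.09 CPM (0.30, adjusted p = 0.0453), and its call ended when any 1 of the 6 libraries was left out (adjusted p 0.0715 to 0.194). All 12 gamma A genes (median 0.18) and all 7 gamma B genes (median 0.22) had positive values, against 5 of 11 alpha and 11 of 22 beta genes and 49.5% of all genes. The vector PBS libraries are also the reference of hAD-tau with vector. There 11 of 12 gamma A (median 0.07) and 7 of 7 gamma B genes (median 0.14) were positive. Within hAD-tau, upACSS2 against vector had 10 of 12 (median 0.06) and 4 of 7 (median 0.04) positive. In both, 50.1% of all genes were positive. The part of the shared vector PBS libraries was not tested. For upACSS2 in PBS, 12 members had an unadjusted p under 0.05, against 26.2% of all genes. The 4 calls of 57 members are fewer than 10.2% and more than the 4.90% of all genes called higher. Without vector PBS replicate 1, Pcdhga3 (0.23, adjusted p 0.0572) and Pcdhgc4 (0.23, 0.0876) no longer passed and only 1 call was left, where 3.74% of all genes passed. Without upACSS2 PBS replicate 2, Pcdhgc4 did not pass (0.20, 0.0895). With all 24 unstimulated libraries in 1 fit, where the spread of day 21 is pooled in, no member passed (0.0135% of all genes). Beside these calls, 6 of 9 markers of oligodendrocytes and their precursors tested were lower with upACSS2, with sums of 277 to 305 against 295 to 344 CPM, and their part was not tested.

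hAD-tau with vector at day 9 had 1 call, Pcdhgc4 at 45.3, 45.9 and 40.9 CPM against 35.9, 36.9 and 37.5 CPM in the same PBS libraries as above (0.26, SE 0.07, edgeR adjusted p = 0.0266), where 4.28% of all genes passed (2.01% higher). The groups did not overlap, and 5 members had an unadjusted p under 0.05 against 20.6% of all genes. The call ended without vector PBS replicate 1 (adjusted p 0.156) and without vector hAD-tau replicate 1 (0.118) or 2 (0.154), and without replicate 3 of that group 3 members passed (9.89% of all genes). The other day 9 comparisons had no call by edgeR, namely upACSS2 against vector in hAD-tau (0.692% of all genes), hAD-tau against PBS with upACSS2 (0.349%) and the interaction of virus and tau (0.663%). At an unadjusted p under 0.05 they had 6, 5 and 7 of 57 members, against 12.6%, 9.05% and 17.2% of all genes, and DESeq2 had 0, 1 and 0 calls among them, where it called 0.915%, 0.772% and 4.54% of the genes to which it gave an adjusted p. The 1 was Pcdhac2, lower with hAD-tau (-0.18, DESeq2 adjusted p 0.0499, edgeR 0.0918).

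At day 21 without stimulation no member passed in any comparison of virus or tau. In order, upACSS2 against vector in PBS and in hAD-tau, hAD-tau against PBS with vector and with upACSS2, and the interaction had 4, 1, 4, 2 and 0 members at an unadjusted p under 0.05 by edgeR and 0 calls by DESeq2. By edgeR 0.0137%, 0.0273%, 0%, 0% and 0% of all genes passed with adjustment, and 16.6%, 10.7%, 9.3%, 6.36% and 8.3% without it. DESeq2 called 2.54%, 0.854%, 0.0147%, 0.0651% and 0.0147% of all genes. In PBS 50 of 57 members had positive values with upACSS2 (median 0.20), against 49.4% of all genes. Replicates 2 and 3 of vector PBS, the reference there and in the next contrast, had low neuronal marker sums, as given above. Without replicate 2, 49 of 57 members were positive (median 0.15, 53.5% of all genes), and without replicate 3, 52 of 57 (median 0.25, 50.7%). The part of the cell mixture was not tested. Pcdhgc5 was at 115, 42.5 and 98.0 CPM with hAD-tau against 77.9, 33.9 and 37.6 CPM with PBS in the vector cultures (0.77, SE 0.37, adjusted p 0.530), which overlapped. Day 21 had a biological coefficient of variation of 0.189 against 0.042 at day 9. With all 24 unstimulated libraries in 1 fit, 3 members passed for upACSS2 in PBS, where 10.6% of all genes passed. Named for passing in that fit, against the same vector PBS libraries, they were Pcdha5 (0.57, adjusted p 0.0133), Pcdhac2 (0.35, 0.0403) and Pcdhb10 (0.53, 0.0450), all higher.

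The stimulated day 21 cultures had no edgeR call either, with 0.208%, 0.937%, 3.02%, 0.208% and 0% of all genes passing and 9, 1, 11, 3 and 3 members at an unadjusted p under 0.05 in the same order of comparisons. The latter compare with 15.9%, 20.4%, 24.3%, 14.3% and 14.3% of all genes. DESeq2 called 1, 0, 2, 1 and 0 members, where it called 2.8%, 6.35%, 10.3%, 3.11% and 0.852% of all genes. In PBS, Pcdhgc4 was at 24.3, 38.3 and 24.6 CPM with upACSS2 and at 15.3, 20.2 and 16.8 CPM with vector, without overlap (0.73, SE 0.18, edgeR adjusted p = 0.110, DESeq2 0.0130). Pcdhgc5 with upACSS2 was at 89.0, 98.5 and 118 CPM with hAD-tau and at 65.6, 57.9 and 69.5 CPM with PBS, also without overlap (0.66, SE 0.17, edgeR adjusted p = 0.111, DESeq2 0.0124). Both of these edgeR values are short of the threshold. In PBS 51 of 57 members had positive values with upACSS2 (median 0.18, 50.5% of all genes positive). For hAD-tau against PBS 39 were positive with vector (50.8% of all genes) and 21 with upACSS2 (47%). The interaction had 10 of 57 positive (median -0.15, 49.8% of all genes).

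For hAD-tau against PBS with vector the stimulated libraries met the pairing rule given under the processing. A fit with the replicate number as a block over all stimulated libraries called 2 C type genes, where 7.16% of all genes passed. That block also ties libraries for which the rule failed. Their correlations were -0.11 to 0.15 for upACSS2 against vector in PBS and -0.11 to 0.16 for hAD-tau against PBS with upACSS2. Pcdhac2 was at 50.8, 50.6 and 50.3 CPM with hAD-tau and at 38.8, 44.1 and 41.7 CPM with PBS (0.28, adjusted p = 0.0800 without the block and 0.0496 with it). Pcdhgc4 was at 21.0, 27.1 and 24.7 against 15.3, 20.2 and 16.8 CPM (0.47, adjusted p = 0.144 and 0.0390). Neither gene overlapped between its 2 groups. With upACSS2 both had negative values for hAD-tau against PBS, overlapped and did not pass. Pcdhac2 was there at 44.9, 46.8 and 43.0 against 45.9, 56.5 and 48.0 CPM (-0.16, edgeR adjusted p = 0.419), and Pcdhgc4 at 19.8, 25.3 and 25.4 against 24.3, 38.3 and 24.6 CPM (-0.31, adjusted p = 0.457). The interaction of virus and tau did not pass for either gene (-0.44, edgeR adjusted p = 0.233 for Pcdhac2 and -0.78, 0.253 for Pcdhgc4). For hAD-tau with vector, without vector hAD-tau replicate 2 and with no block, 2 members were called (8.53% of all genes).

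In cultures that received no virus, hAD-tau against PBS at day 21 had no edgeR call among 54 members tested, and 0% of all genes passed. At an unadjusted p under 0.05 there were 5 members against 13.9% of all genes, and DESeq2 called Pcdhac2 (lower, adjusted p 0.0462) and 1.9% of all genes. All 9 alpha members tested had negative values (median -0.46) and all 21 beta members positive ones (median 0.25), where 51.4% of all genes were positive. Without PBS replicate 3, the library with few astrocyte markers, 7 of the 9 alpha members were negative (median -0.21) and 14 of the 21 beta members positive (median 0.05), with 51.9% of all genes positive. Pcdhac2 was at 15.2, 21.0, 24.2 and 21.6 CPM with hAD-tau and at 36.6, 28.8 and 56.2 CPM with PBS, without overlap (-0.98, SE 0.25, edgeR adjusted p = 0.306). Pcdhgc4 was at 19.3, 23.3, 19.2 and 24.4 against 31.9, 24.6 and 44.6 CPM, again all lower (-0.65, adjusted p = 0.319).

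The same PBS replicate 3 was the highest of the PBS libraries for both genes. Without it Pcdhac2 had -0.66 and Pcdhgc4 -0.37. Pcdhgc5 was at 77.0, 57.8, 37.8 and 66.4 CPM with hAD-tau and at 34.4, 37.8 and 40.3 CPM with PBS, with overlap (0.67, adjusted p = 0.322). Pcdhgc3 was at 400, 391, 273 and 483 CPM against 307, 349 and 99.9 CPM (0.62, adjusted p = 0.488), the low PBS value being that of replicate 3. The cluster mean of the beta genes was 0.35 log2 units higher with hAD-tau with that library and 0.07 without it.

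In the mice the virus comparisons had no edgeR call among 53 members tested in each, and 0% of all genes passed in all 4. In aged mice 1 member had an unadjusted p under 0.05 (5.58% of all genes) and DESeq2 called 0 members and 0% of all genes. Pcdhgc5 averaged 80.4 ± 8.49 CPM in the upACSS2 mice and 77.4 ± 5.92 CPM in the vector mice (SD, n = 12 in each arm), and Pcdhac2 was 43.8 ± 6.16 against 40.0 ± 4.03 CPM. All 5 C type genes overlapped between the arms, with fold changes of 0.05 to 0.13.

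In 10-month mice 48 of 53 members had positive values (median 0.19, 48.6% of all genes positive), 8 had an unadjusted p under 0.05 (8.83% of all genes) and DESeq2 called 0, where it called 0.0112% of all genes. Pcdhgb7, a gamma B gene picked out after its values were seen, was at 7.51, 9.22, 7.73, 7.15, 8.36 and 8.74 CPM with upACSS2 and at 7.05, 4.75, 4.85, 5.21 and 5.01 CPM with vector, without overlap (0.58, SE 0.14, edgeR adjusted p = 0.518). Pcdhgc3 was 73.5 ± 4.23 CPM with upACSS2 (SD, n = 6) and 60.1 ± 10.6 with vector (SD, n = 5), with overlap (0.29, SE 0.10, edgeR adjusted p = 0.518). Pcdhgc5 was 93.7 ± 18.5 against 71.8 ± 9.92 CPM (0.38, SE 0.13, adjusted p = 0.518), also with overlap, and Pcdhgc4 had 0.17 (adjusted p 0.766).

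In PS19 mice at 1 month 49 of 53 members had positive values with upACSS2 (median 0.20, 48.5% of all genes positive) and 5 had an unadjusted p under 0.05 (2.92% of all genes). At 6 months 15 of 53 were positive (median -0.09, 48.2% of all genes positive) and 2 had an unadjusted p under 0.05 (14.1% of all genes). Without replicate 3 of the 6-month upACSS2 group, which had the lowest mean of each cluster, the lowest neuronal marker sum (10334 CPM) and the highest astrocyte sum (8559 CPM) of its 5 mice, 27 of 53 were positive (median 0.0043, 47.4% of all genes positive). DESeq2 called none at 1 month (0.00285% of all genes) and 1 at 6 months (0.743% of all genes), Pcdhgb1 (-0.70, adjusted p 0.0245). The interaction of virus and time had no edgeR call (0% of all genes), with 6 members at an unadjusted p under 0.05 against 12.3% of all genes, and DESeq2 called Pcdhgb1 there (-1.20, adjusted p 0.0453) and 0.00856% of all genes. Virus and tissue cannot be told apart at 1 month, as given above.

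With time, from 1 to 6 months after injection of the vector, 2 members were higher in PS19 mice and none lower, where 7.46% of the 15850 genes tested passed (4.59% higher). Pcdhb9 was at 11.7, 10.1, 13.3, 10.3 and 11.7 CPM at 1 month and at 20.1, 15.6, 16.3, 17.4 and 16.1 CPM at 6 months. All 5 later mice were above all 5 earlier ones (0.58, SE 0.11, edgeR adjusted p = 0.0065), and the call held under all 15 alternatives tried. Pcdhgb1 was at 5.71, 4.98, 5.28, 4.0 and 4.70 CPM at 1 month and at 8.70, 7.27, 5.66, 7.01 and 10.2 CPM at 6 months, with 1 later mouse inside the earlier range (0.65, SE 0.17, adjusted p = 0.0281).

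The Pcdhgb1 call ended without replicate 1, 2 or 4 of the 1-month group or replicate 1, 4 or 5 of the 6-month group (adjusted p 0.0523 to 0.0807), which left 1 call. The share of members called, 2 of 53, is not above that of all genes. At an unadjusted p under 0.05 there were 13 members against 25.1% of all genes. Of the beta genes 20 of 21 were positive (median 0.33, 50.9% of all genes positive), and Pcdhb3, Pcdhb4, Pcdhb9, Pcdhb13 and Pcdhgb4 were the members without overlap between the times, all higher, against 5.16% of all genes. When only these 2 groups entered the fit, 6 of 52 members passed, all higher, where 8.61% of all genes passed. The ranges of the marker sums at 1 and 6 months were 422 to 1291 and 629 to 1485 CPM for microglia and 88.1 to 171 and 82.4 to 552 CPM for thalamic genes, which would come with tissue beside the hippocampus. Their part was not tested.

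With upACSS2 the same interval had no edgeR call (0.0442% of all genes), with 4 members at an unadjusted p under 0.05 against 13.7% of all genes. Pcdhb9 was at 9.95, 12.6, 14.5, 12.6 and 13.2 CPM at 1 month and at 17.2, 20.4, 15.3, 20.3 and 15.8 CPM at 6 months, again all higher at the later time (0.49, edgeR adjusted p = 0.117, DESeq2 0.0137). DESeq2 called 1 member there and 1.02% of all genes. Tissue changes between these 2 groups as well, from whole to dorsal hippocampus.

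**Figure D5:**
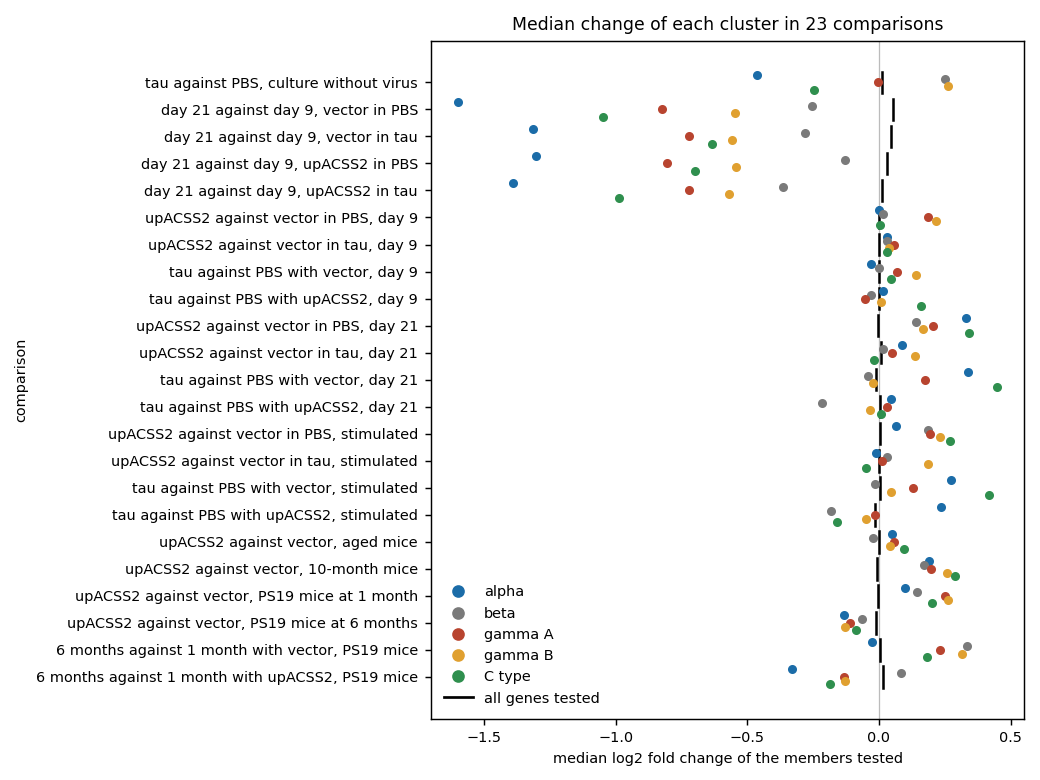
Median log2 fold change over the tested members of each cluster in 23 comparisons, 1 row per comparison and 1 marker per cluster, with the median over all genes tested. Among the 23, the 4 day comparisons hold the largest shifts, the alpha cluster at -1.60 to -1.30, and the virus and tau comparisons lie nearer 0 than that. The beta medians of the day comparisons are smaller than some tau medians, such as the C type median of 0.45 for hAD-tau with vector at day 21.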

How the data were processed

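RNA-seq libraries of cultured mouse neurons and mouse hippocampus were analysed from 6 tables of raw read counts per gene symbol that the authors deposited. The submitters' processing notes name STAR, featureCounts, HTSeq, DESeq2 and mm10, without roles, and their versions, strand setting and treatment of shared reads are not given in the sources used here. In the table of cultures without virus a row with a blank name held 6.13% to 8.74% of counts and was left out. Groups came from sample titles, and all 98 libraries in 22 groups were used. Total counts per library are given with the results.

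Each table was fitted across all genes with edgeR 4.0.16 in R 4.3.3 (TMM factors, filterByExpr by group, quasi-likelihood F test, Benjamini-Hochberg adjustment over all genes tested, threshold 0.05). Comparisons within a culture day used the 12 libraries of that day, those between days all 24, and the others all libraries of their table. Levels are CPM on TMM-scaled library sizes, and log2 CPM used a prior count of 2. A cluster mean is the mean log2 CPM of its members and was given no test. The standard error is the absolute log2 fold change divided by the square root of F. The fit was tested on simulated counts.

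The members, lists and tests were chosen with earlier results of these data known. Named genes were the C type members, the highest and lowest member of each cluster, and members past the threshold (at most 3 per direction and cluster where more than 10 passed). Alternatives were DESeq2 1.42.0, limma 3.58.1 voom, RLE factors, no filter, only the groups compared, all 24 unstimulated libraries, a replicate block, prior count 0.5, the log2 of summed CPM, and each library left out in turn.

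Replicate numbers were taken to pair samples where deviations of all same-numbered pairs correlated above 0.1. This held for tau against PBS without virus (0.22 to 0.39) and, in stimulated cultures, for upACSS2 against vector in hAD-tau (0.11 to 0.36) and hAD-tau against PBS with vector (0.12 to 0.33). The pairing is a property of the data, since the labels give only numbers. Member positions came from RefSeq for GRCm38.p6 and exon overlaps from GENCODE M21.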

Additional observations from a re-analysis of the deposited data

Results flagged for a closer look

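Of 70 sets of 4 to 6 libraries examined (the C type genes and the cluster means by group), 6 held a library far from the rest of its group. Chance gives about 1 in 20 for a single set, but the sets share libraries and members, so the 6 are not separate events. Groups of 3 libraries (cultures) and of 12 (aged mice) were not examined in this way. Pcdhac1 in the hAD-tau cultures without virus was at 0.599 CPM in replicate 1, with the next library at 1.31 CPM.

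The other 5 were all replicate 3 of the PS19 upACSS2 group at 6 months. It was the lowest of 5 mice for the alpha cluster mean (0.0717 log2 CPM, the next 0.59), the gamma A cluster mean (2.32, the next 3.13) and the C type mean (3.96, the next 4.51). It was also the lowest for Pcdhac2 (28.8 CPM, the next 38.5) and Pcdhgc4 (5.70 CPM, the next 7.68). In the same library the neuronal marker sum was 10334 CPM, the lowest of the 5 mice, and the astrocyte sum was 8559 CPM, the highest. The part of the cell mixture in these low values was not tested.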

How the results depend on the processing

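The day 21 against day 9 counts kept within 1.5 times under every alternative. Leaving out 1 library gave 34 to 39 members past the threshold in vector PBS, 37 to 41 in vector hAD-tau, 33 to 40 in upACSS2 PBS and 36 to 40 in upACSS2 hAD-tau. The virus and tau counts were small and moved more. DESeq2 called 1 member each for hAD-tau with upACSS2 at day 9, hAD-tau without virus, upACSS2 in PBS and hAD-tau with upACSS2 when stimulated, and, in PS19 mice, virus at 6 months, time with upACSS2 and the interaction. It called 2 for hAD-tau with vector when stimulated. With no filter on low counts, day 9 had 3 calls for hAD-tau with vector and 1 each for hAD-tau with upACSS2, virus in hAD-tau and the interaction. With only the groups compared, PS19 time with vector had 6 calls and stimulated hAD-tau with upACSS2 had 1. With all 24 unstimulated libraries, virus in PBS and hAD-tau with vector had 0 calls at day 9, and virus in PBS had 3 at day 21 (Pcdha5 0.57, Pcdhac2 0.35, Pcdhb10 0.53). With the replicate block, the stimulated cultures had 2 calls for hAD-tau with vector, 1 for hAD-tau with upACSS2 and 1 for upACSS2 in PBS, and no other count moved by over 1.5 times. Leaving out 1 library gave 1 to 5 calls for virus in PBS, 0 to 3 for hAD-tau with vector and 0 to 1 for virus in hAD-tau at day 9, 0 to 2 for stimulated hAD-tau with vector, and 1 to 2 for PS19 time with vector. The cause of these shifts was not tested, apart from the smaller or larger sets of genes and libraries that the settings themselves bring. The share of all genes called also changes with the setting and is given above for some settings only. These counts are therefore not read as results about the members.

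Alternatives were followed gene by gene for the members called or named. Among these, the fold change of Pcdhac1 with hAD-tau in cultures without virus turned direction: it was -0.25 with all libraries and 0.18 (adjusted p 0.919) without PBS replicate 3, with a range of -0.46 to 0.18 over the libraries left out. Over all 54 members tested there, 18 turned direction without PBS replicate 3 and 1 to 5 without any other library. Cluster differences taken as the log2 of summed CPM moved by more than the spread in 20 of 138 cases, and with prior count 0.5 in 1 of 138. Counts limit the lowest members, such as Pcdhb1, Pcdhgb8 and Pcdha4, whose levels were near or under 1 CPM.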
